A study of Mus musculus with 4 samples.

Results

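The transcripts described here are 10 genes of the LIF-STAT3 and FGF-ERK pathways, taken by symbol from a count table of 55401 mouse genes: Lifr, Il6st, Stat3, Socs3, Fgf4, Fgfr1, Spry2, Spry4, Dusp6 and Etv4. All 10 were found and all 10 passed the filter on low counts. The rule that names them uses symbols and no measured value, but they were chosen with earlier results of these data known. mRNA sequencing was performed on E14 mouse embryonic stem cells (mESCs) that were either wild type (WT) or knocked out for Haspin (Haspin-KO), the kinase that phosphorylates histone H3 at threonine 3 in mitosis, with 2 libraries in each group. The Haspin-KO cells were single clones made with CRISPR/Cas9 and a pair of guide RNAs. The labels do not say which knockout clone each library came from or whether the libraries are separate cultures, so that p-values measure only the spread between these libraries, which may be technical. Both groups were kept in serum medium with LIF, the MEK inhibitor PD0325901 and the GSK3 inhibitor CHIR99021. The methods name mouse embryonic fibroblast feeders for passage and gelatin for assays, and do not say which was used before RNA extraction.

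LIF binds LIFR, which pairs with gp130, the product of Il6st, and Janus kinases bound to this receptor phosphorylate STAT3. STAT3 enters the nucleus and switches on self-renewal genes together with Socs3, whose product shuts the receptor off. FGF4, which mESCs secrete, acts through FGF receptors and the Ras-MEK-ERK cascade and primes the cells for differentiation. ERK activity in turn raises Sprouty genes, Dusp6 and PEA3-type ETS factors such as Etv4, and the Sprouty proteins and DUSP6 dampen the cascade. In the medium used here LIF was supplied and MEK, which lies between RAF and ERK, was inhibited in both groups. Of the 10 genes, the pathway column of the deposited table placed Lifr, Il6st, Stat3 and Socs3, 4 genes, in JAK-STAT signalling and Fgf4, Fgfr1 and Dusp6, 3 genes, in MAPK signalling.

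Upstream sequence is shown for Socs3, the gene whose groups did not overlap, and for Dusp6 and Spry2, feedback genes with a wide and a narrow spread between libraries. All are from RefSeq (GRCm38.p6), 5′ to 3′ on the strand of the gene, and none overlaps an exon of the annotation used. The Socs3 stretch covers 100 bases from position -200 relative to the RefSeq start, chr11:117969467-117969566 on the minus strand, which lies within the span that the deposited table gives the gene. The capitals mark a match to TTCNNNGAA, the core to which STAT proteins bind, beginning at -154.
Socs3: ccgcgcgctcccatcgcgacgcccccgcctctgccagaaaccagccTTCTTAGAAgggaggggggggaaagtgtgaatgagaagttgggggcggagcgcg
The Dusp6 stretch covers -150 to -1, chr10:99263081-99263230 on the plus strand, and has no capitals because no searched motif was found.
Dusp6: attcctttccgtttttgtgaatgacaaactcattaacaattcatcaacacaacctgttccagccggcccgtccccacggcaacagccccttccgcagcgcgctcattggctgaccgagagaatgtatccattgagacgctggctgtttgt
The Spry2 stretch covers -150 to -1, chr14:105896820-105896969 on the minus strand, also without a match.
Spry2: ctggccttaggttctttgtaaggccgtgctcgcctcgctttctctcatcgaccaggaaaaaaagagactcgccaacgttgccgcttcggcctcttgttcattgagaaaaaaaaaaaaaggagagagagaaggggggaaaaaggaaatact

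In the 250 bases before the start, 8 RefSeq windows of 7 of the 10 genes were searched. Entries on chromosome 18, which carries Spry4, were left out for these genes, but not from the 32851 windows used as background. Among the 7 genes, Socs3 alone had TTCNNNGAA on either strand. That motif was present in 7.02% of 32851 windows of the same length. CCGGAAGT, a core for ETS factors, was in 2.88% of all windows, and TGACGTCA, the cyclic AMP response element, was in 1.55%. Neither was in a searched window of these genes. A match is a string of letters and not a bound site.

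Library totals were 21834847 and 17452307 counts in WT and 14207828 and 14436750 counts in Haspin-KO, and 15580 genes were tested. Haspin itself had 875 and 619 counts in WT and 149 and 209 counts in Haspin-KO, a log2 fold change of -1.60 (SE 0.16, edgeR adjusted p = 0.00154). The 12 mESC markers summed to 6759 and 6930 CPM (counts scaled to the library total) in the WT libraries and 6353 and 6519 CPM in the Haspin-KO libraries. Of them 0 passed an adjusted p of 0.05 in edgeR, and 2 were lower at an unadjusted p of 0.05, beside 10.4% of all genes tested. The fitted change was below 0 for 10 of the 12 markers and above 0 for 2, with a median log2 fold change of -0.076. Dppa5a was the highest of them, at 1570 and 1575 FPKM (counts scaled to exonic length and to the library total) in WT and 1414 and 1316 FPKM in Haspin-KO, and Tbx3 the lowest, at 39.7 and 43.8 FPKM in WT and 42.8 and 40.4 FPKM in Haspin-KO. Transcripts of other cell types did differ between the groups. The 21 fibroblast markers came to a sum of 301.1 and 227.9 CPM in WT, against 75.2 and 71.5 CPM in Haspin-KO. Of 16 tested 12 were lower in Haspin-KO at an edgeR adjusted p under 0.05, beside 1.51% of all genes tested. Of the 21 markers, 11 were at or under 3 counts, taken as the floor, in both Haspin-KO libraries. Acta2, a smooth muscle actin of fibroblasts, led them with 25.3 and 18.7 FPKM in WT and 1.41 and 2.68 FPKM in Haspin-KO. Dcn, Postn, Lum and Fap had 0 counts in both Haspin-KO libraries. In WT, Postn had 171 and 77 counts, Dcn 4 and 2, Fap 1 and 0, and Lum 0 in both. The 10 markers of 2-cell-like cells, a rare state of mESC cultures, came to 69.9 and 65.8 CPM in WT, against 177.1 and 137.1 CPM in Haspin-KO. All 9 tested had a fitted change above 0. Beside 10.4% and 0.988% of all genes tested, 8 of these markers were higher at an unadjusted p under 0.05 in edgeR and 5 at an adjusted p under 0.05. Zscan4d, the highest of them, had 7.96 and 7.41 FPKM in WT and 22.3 and 18.2 FPKM in Haspin-KO, Zfp352 had 0.28 and 0.40 FPKM in WT and 0.80 and 0.82 FPKM in Haspin-KO, and Tcstv1 was at or under the floor in every library. The 9 primitive endoderm markers summed to 13.7 and 9.40 CPM in WT and 15.8 and 8.73 CPM in Haspin-KO, with Gata4 at 1.36 and 0.88 FPKM in WT and 0.99 and 0.62 FPKM in Haspin-KO, Cubn at 0.05 and 0.04 FPKM in WT and 0.15 and 0.07 FPKM in Haspin-KO, and Afp at or under the floor throughout. In bulk RNA, fewer cells of a type and less RNA per cell cannot be told apart. The part of these other transcripts in the values below was not tested.

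**Figure D1:**
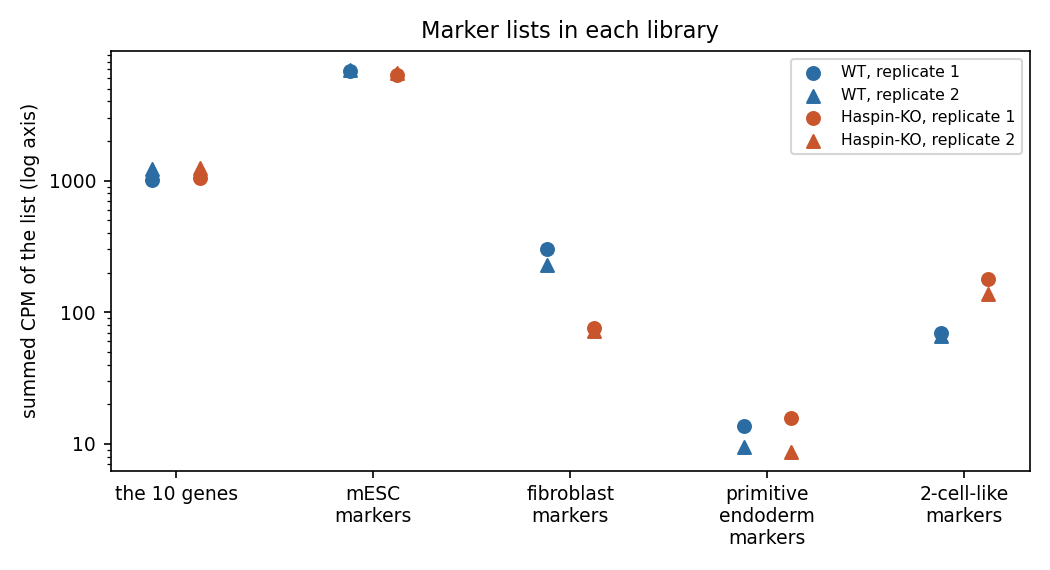
Summed level (CPM, log axis) of the 10 genes and of 4 marker lists in each library, with circles for replicate 1, triangles for replicate 2, WT in blue and Haspin-KO in orange. The 10 genes and the mESC markers lay close together in all libraries, fibroblast markers were lower and 2-cell-like markers higher in both Haspin-KO libraries.

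All 10 genes were transcribed in every library, and the order of their levels was similar in both groups. On the FPKM scale, which corrects for exonic length, Fgf4 was highest in WT at 45.6 ± 6.19 (SD, n = 2) and Spry2 followed at 45.3 ± 7.44, and their libraries overlapped. Socs3 at 38.7 ± 0.488 FPKM and Etv4 at 32.4 ± 3.08 FPKM came next, each without overlap with its neighbours in the order. Below them lay Stat3 at 18.6 ± 2.38, Fgfr1 at 18.4 ± 0.827, Spry4 at 15.4 ± 14.1, Il6st at 10.3 ± 1.80, Dusp6 at 9.36 ± 6.80 and Lifr at 8.74 ± 1.73 FPKM, and each of these overlapped the next. In Haspin-KO the same 4 genes led, with Fgf4 at 49.9 ± 8.77 FPKM above Spry2 at 38.5 ± 4.67 FPKM, Socs3 at 35.0 ± 0.750 FPKM and Etv4 at 31.6 ± 6.88 FPKM. There Fgf4 did not overlap Spry2, while Spry2 overlapped Socs3 and Socs3 overlapped Etv4. Etv4 did not overlap Stat3, the next in the order. The 6 lower genes were the same in Haspin-KO, again with each overlapping the next, from Stat3 at 18.4 ± 1.27 FPKM to Lifr at 10.4 ± 1.36 FPKM, and Dusp6 at 14.4 ± 11.3 FPKM stood above Il6st at 10.8 ± 0.707 FPKM. By role, the inhibitors Spry2 and Socs3 stood near the top of the order and the inhibitors Spry4 and Dusp6 in its lower part, beside the receptor genes Il6st and Lifr.

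**Figure D2:**
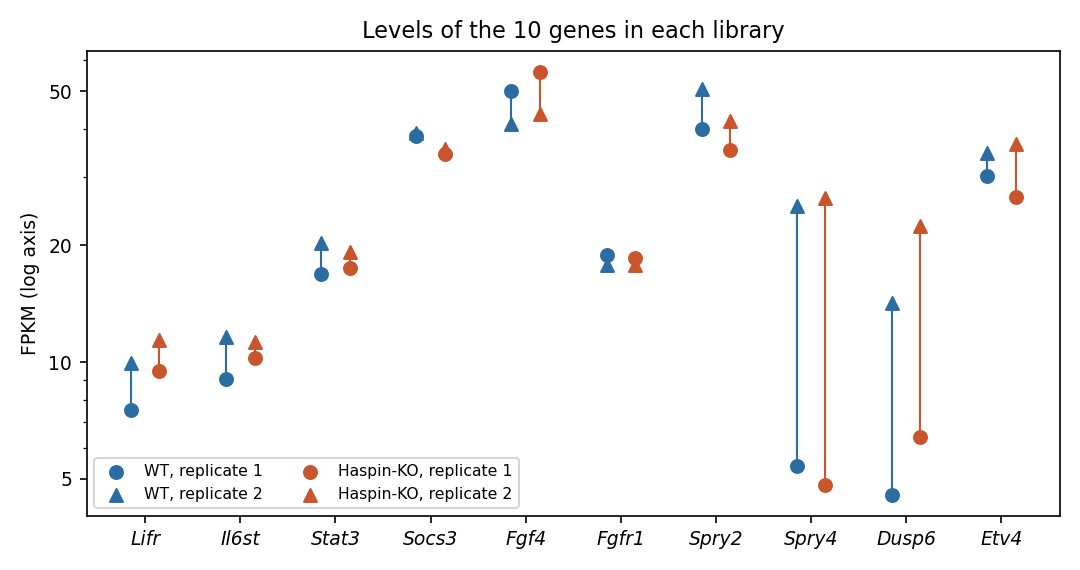
Level of each of the 10 genes in each library (FPKM, log axis), with circles for replicate 1, triangles for replicate 2, WT in blue and Haspin-KO in orange, and a line joining the libraries of a group. Spry4 and Dusp6 span a wide range within each group, from 4.81 to 26.5 FPKM and from 4.55 to 22.4 FPKM over all libraries, and the other genes a narrow one.

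In the fit that takes the libraries of a group as unpaired, none of the 10 genes passed the test between Haspin-KO and WT. A gene was called when the edgeR quasi-likelihood test gave a Benjamini-Hochberg adjusted p under 0.05 over all genes and the fold change exceeded 2. Under this rule 0 of the 10 were called, beside 0.828% of all genes tested. At an adjusted p under 0.05 with any fold change, 0.988% of all genes were higher and 1.51% lower in Haspin-KO, and 0 of the 10 were among them. None of the 10 had an unadjusted p under 0.05 in edgeR, which 3242 genes had, and DESeq2 and limma also gave 0 of the 10 an adjusted p under 0.05. The fitted change was above 0 for 5 genes and below 0 for 5, and the median of the 10 log2 fold changes was 0.012, beside -0.0039 over all genes tested. The smallest adjusted p of the 10 was 0.305. The 95% interval of the change lay within 2-fold in either direction for 8 of the 10 genes, as for 77.1% of all genes. For Spry4 and Dusp6 it did not.

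**Figure D3:**
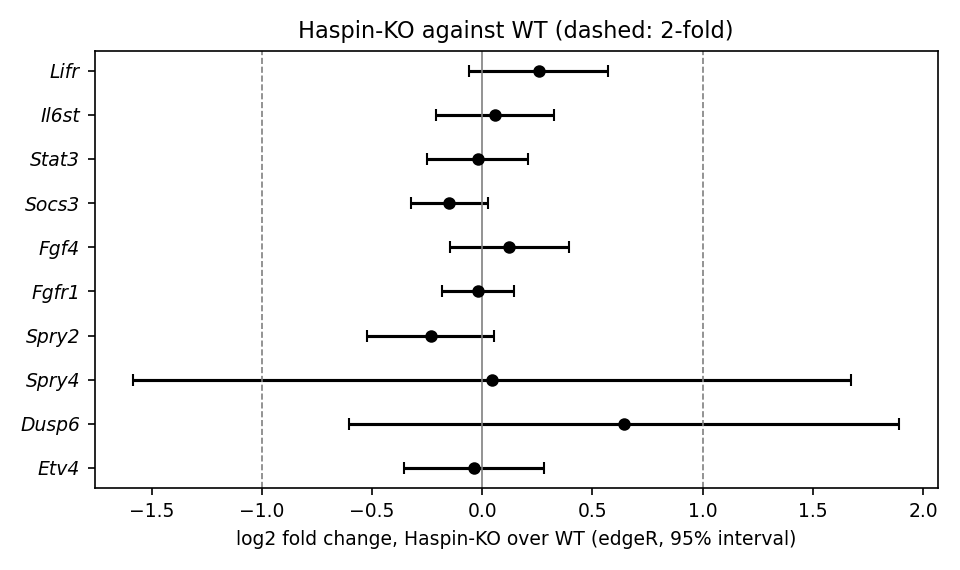
Log2 fold change of each of the 10 genes in Haspin-KO over WT with its 95% interval from the edgeR fit. All intervals include 0, and those of Spry4 and Dusp6 alone pass the dashed lines at 2-fold.

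Lifr (chromosome 15, 7090614 to 7197489, plus strand, mm10), the subunit that binds LIF, measured 7.51 and 9.96 FPKM in WT and 9.47 and 11.4 FPKM in Haspin-KO. The groups overlapped, with WT replicate 2 above Haspin-KO replicate 1. Its log2 fold change was 0.26 (SE 0.14, 95% interval -0.060 to 0.57, edgeR adjusted p = 0.333), and it was 0.059 without WT replicate 1 and 0.13 after correction for GC content and gene length. Il6st (chromosome 13, 112464070 to 112510086, plus strand) encodes gp130, the chain that signals for LIF and its relatives. It measured 9.06 and 11.6 FPKM in WT and 10.3 and 11.3 FPKM in Haspin-KO, so that both Haspin-KO libraries lay between the WT libraries. The log2 fold change was 0.057 (SE 0.12, 95% interval -0.21 to 0.32, edgeR adjusted p = 0.828).

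Stat3 (chromosome 11, 100885098 to 100939540, minus strand), the transcription factor of the pathway, measured 16.9 and 20.3 FPKM in WT and 17.5 and 19.3 FPKM in Haspin-KO. The Haspin-KO libraries again lay between the WT libraries, and the log2 fold change was -0.021 (SE 0.10, 95% interval -0.25 to 0.21, edgeR adjusted p = 0.937). Transcript level says nothing of STAT3 phosphorylation, which was not measured in these libraries. The opposite strand carries Stat5a, which overlaps Stat3 in the annotation and had 143 and 134 counts in WT and 90 and 98 counts in Haspin-KO, against 2363 to 3516 counts for Stat3. Whether counting used strand is not given in the sources used here, so reads of the overlap may belong to either gene.

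Socs3 (chromosome 11, 117966079 to 117970047, minus strand), the STAT3-induced inhibitor of the receptor whose upstream sequence with the STAT core is shown above, measured 38.3 and 39.0 FPKM in WT and 34.4 and 35.5 FPKM in Haspin-KO. It was the 1 gene of the 10 whose groups did not overlap, which was true of 52.0% of all genes tested. The SD of its FPKM was the smallest of the 10 in WT, but not in Haspin-KO. The log2 fold change was -0.15 (SE 0.077, 95% interval -0.32 to 0.024), with an unadjusted p of 0.0834 and an adjusted p of 0.305 in edgeR. The fitted change was 0.0083 after correction for GC content and gene length. The interval of the change of Socs3 included 0 and lay within 2-fold.

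Fgf4 (chromosome 7, 144847367 to 144865243, plus strand), the ligand that mESCs make themselves, measured 49.9 and 41.2 FPKM in WT and 56.1 and 43.7 FPKM in Haspin-KO. In each group replicate 1 was the higher library, and the groups overlapped. The log2 fold change was 0.12 (SE 0.12, 95% interval -0.15 to 0.39, edgeR adjusted p = 0.597). Fgfr1 (chromosome 8, 25513654 to 25575718, plus strand), a receptor for FGF4, varied little, with 18.9 and 17.8 FPKM in WT and 18.5 and 17.8 FPKM in Haspin-KO. Its log2 fold change was -0.020 with the narrowest interval of the 10, -0.18 to 0.14 (SE 0.072, edgeR adjusted p = 0.910). A minor overlapping gene on the other strand, Gm16159, had 7 to 12 counts, against 2540 to 4084 counts for Fgfr1.

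Spry2 (chromosome 14, 105891947 to 105896819, minus strand), a Sprouty inhibitor of receptor tyrosine kinase signalling, measured 40.03 and 50.55 FPKM in WT and 35.2 and 41.9 FPKM in Haspin-KO. Haspin-KO replicate 2 lay above WT replicate 1, so that the groups overlapped. The log2 fold change was -0.23 (SE 0.13, 95% interval -0.52 to 0.055, edgeR adjusted p = 0.333), and it was -0.046 without WT replicate 2. Etv4 (chromosome 11, 101769742 to 101785371, minus strand), an ETS transcription factor induced by FGF-ERK signalling, measured 30.2 and 34.6 FPKM in WT and 26.7 and 36.4 FPKM in Haspin-KO. The WT libraries lay between the Haspin-KO libraries, and the log2 fold change was -0.038 (SE 0.14, 95% interval -0.36 to 0.28, edgeR adjusted p = 0.909).

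Spry4 (chromosome 18, 38586247 to 38601415, minus strand), the other Sprouty gene of the set, measured 5.39 and 25.3 FPKM in WT and 4.81 and 26.5 FPKM in Haspin-KO. Both replicate 1 libraries were low and both replicate 2 libraries were high, while the groups had nearly the same mean. The log2 fold change was 0.044 (SE 0.72, 95% interval -1.58 to 1.67, edgeR adjusted p = 0.981). Its counts were 560 and 2100 in WT and 325 and 1819 in Haspin-KO. Both short overlapping genes on the other strand, Gm27369 and Gm27804, had at most 3 counts in a library.

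Dusp6 (chromosome 10, 99263231 to 99267489, plus strand), the phosphatase that removes the activating phosphates of ERK in the cytoplasm, measured 4.55 and 14.2 FPKM in WT and 6.4 and 22.4 FPKM in Haspin-KO. It had the same low and high libraries as Spry4, and Haspin-KO replicate 1 lay below WT replicate 2. Between same-numbered libraries Dusp6 was higher in Haspin-KO both times, with log2 ratios of 0.48 for replicate 1 and 0.67 for replicate 2, without a test. Its counts were 311 and 774 in WT and 285 and 1014 in Haspin-KO. The log2 fold change, 0.64, had the largest size of the 10 and an SE of 0.56 (95% interval -0.61 to 1.89, edgeR adjusted p = 0.545). Dusp6 was not called with all libraries, and was called only with Haspin-KO replicate 1 left out. Without Haspin-KO replicate 1, the low library of that group, the log2 fold change was 1.29 (SE 0.29), a fit in which the lone library is assumed to vary like the WT libraries. With each other library left out in turn it was 0.025 without WT replicate 1, 1.68 without WT replicate 2 and -0.55 without Haspin-KO replicate 2. Each of these fits leaves the replicate numbers unequal between the groups, so that its value also carries the difference between replicate numbers.

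The largest differences among the 10 genes therefore ran between replicate numbers and not between the groups. After TMM scaling, Spry4 in replicate 2 was 4.73 times its level in replicate 1 in WT (95% interval 4.30 to 5.20, exact binomial, covering counting error only) and 5.63 times in Haspin-KO (5.00 to 6.36). For Dusp6 these ratios were 3.14 (2.75 to 3.59) in WT and 3.58 (3.14 to 4.10) in Haspin-KO. These were the 2 genes of the 10 past 2-fold in both groups. Of 10647 genes with a mean of at least 100 counts, 10 genes or 0.0939% were above 2-fold in both groups, led by Spry4, Dusp6 and Myc in that order. The ratios of the other 8 genes lay between 0.796 and 1.39. Higher in replicate 2 in both groups were 8 of the 10 genes, with Lifr at 1.34 and 1.23 and Spry2 at 1.27 and 1.21 in WT and Haspin-KO, beside 30.7% of all genes tested. Fgf4, at 0.831 and 0.796, and Fgfr1, at 0.945 and 0.983, were lower in replicate 2 in both. This pattern was singled out after the values were seen, and nothing in the labels says what same-numbered libraries share.

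**Figure D4:**
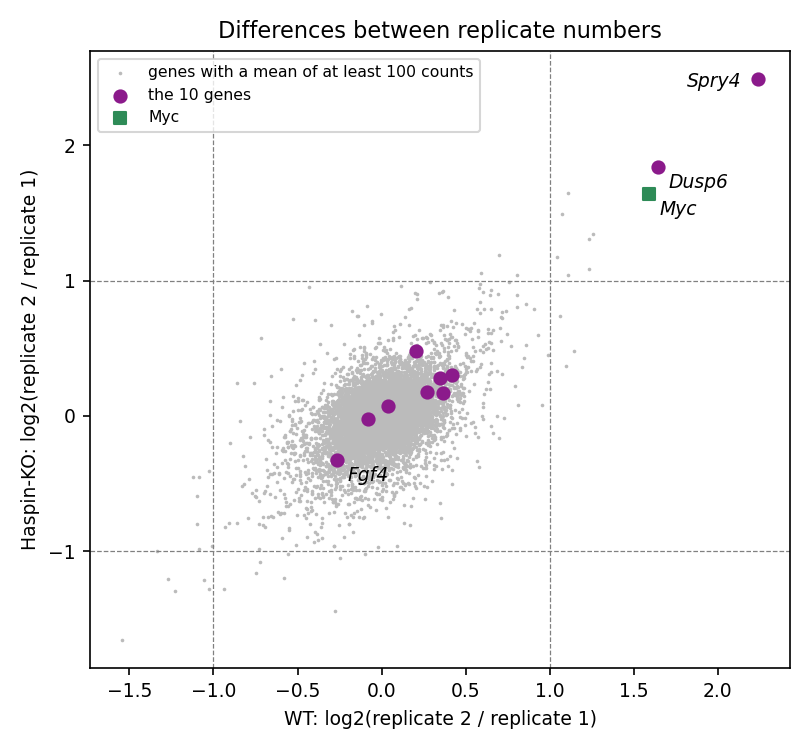
Log2 ratio of replicate 2 to replicate 1 in WT (x axis) and in Haspin-KO (y axis) for genes with a mean of at least 100 counts (grey), the 10 genes (purple) and Myc (green square), with dashed lines at 2-fold. Spry4, Dusp6 and Myc stand apart at the upper right, and the other 8 of the 10 genes lie within the cloud.

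Other ERK-responsive and feedback transcripts were read beside this pattern. Myc, a growth-promoting transcription factor listed here among STAT3 targets and also raised by ERK, measured 5.06 and 15.1 FPKM in WT and 6.14 and 18.7 FPKM in Haspin-KO, with replicate 2 at 3.01 times replicate 1 in WT and 3.12 times in Haspin-KO. Egr1, an immediate early gene, had 12 and 132 counts in WT and 16 and 54 counts in Haspin-KO, a ratio of 13.9 (7.67 to 27.5) and of 3.40 (1.91 to 6.36). Dusp4, a nuclear phosphatase of the same family as Dusp6, had ratios of 1.73 and 2.44, and Spred1, a Sprouty-related inhibitor, 1.49 and 1.55. The difference was not shared by all genes of these roles: Dusp9, a further ERK phosphatase, had ratios of 0.764 and 0.758, and Etv5, the close relative of Etv4, had 1.08 and 1.07. Among the other ERK feedback inhibitors 7 of 11 tested were higher in replicate 2 in both groups and 1 was lower, beside 30.7% of all genes higher. Among the other ERK-responsive transcripts 6 of 8 were higher and 1 was lower. High counts were not particular to these lists, with 7 of 9 STAT3 targets, 7 of 12 mESC markers and 8 of 18 genes of the Ras-ERK cascade higher in both. The count was 2 of 8 for the LIF signal inhibitors and adaptors and 0 of 16 for the fibroblast markers. Lif, the cytokine gene, went the other way, with 223 and 94 counts in WT and 185 and 106 in Haspin-KO, or ratios of 0.531 and 0.576. Myc, Egr1, Dusp4, Spred1 and Lif were named after their values were seen.

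In the remaining LIF-STAT3 lists no gene passed the test between Haspin-KO and WT. Over all genes tested, 10.4% were higher and 10.4% lower at an unadjusted p under 0.05, the background for the counts at that level below. Of 13 tested ligands, receptors and JAK-STAT components, 0 passed an edgeR adjusted p of 0.05, 1 was lower at an unadjusted p of 0.05, and the median log2 fold change was 0.020. The one with the smallest p was Osmr, the oncostatin M receptor, which had 35 and 22 counts in WT and 6 and 8 counts in Haspin-KO (log2 fold change -1.55, SE 0.43, edgeR adjusted p = 0.0891) and which fibroblasts also express. Jak1, the main kinase bound to gp130, measured 13.0 and 13.7 FPKM in WT and 15.2 and 14.7 FPKM in Haspin-KO (log2 fold change 0.16, SE 0.078, edgeR adjusted p = 0.278). Of 8 inhibitors and adaptors, 0 passed and 1 was lower at an unadjusted p of 0.05, with a median of 0.031. The 2 named from them were Ptpn6, a phosphatase, at -0.36 (SE 0.11, edgeR adjusted p = 0.118) and Gab1, a docking protein, at 0.14 (SE 0.067, edgeR adjusted p = 0.256).

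Among 9 STAT3 target genes of mESCs, 0 passed an edgeR adjusted p of 0.05, 2 were lower at an unadjusted p of 0.05, and the median log2 fold change was -0.027. Klf4, a pluripotency factor that STAT3 induces, measured 81.0 and 83.6 FPKM in WT and 66.9 and 67.6 FPKM in Haspin-KO, and the groups did not overlap. Its log2 fold change was -0.29 (SE 0.070, 95% interval -0.45 to -0.14, edgeR adjusted p = 0.0604), close to the threshold and short of it. Bcl3, a nuclear member of the IκB family, measured 31.8 and 28.1 FPKM in WT and 25.4 and 22.4 FPKM in Haspin-KO (log2 fold change -0.33, SE 0.096, edgeR adjusted p = 0.0993).

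In the FGF-ERK pathway, 0 of 8 tested FGF ligands passed an edgeR adjusted p of 0.05, with 2 higher and 1 lower at an unadjusted p of 0.05. The median log2 fold change of the ligands was 0.44, and 0.44 with Fgf5 set to its bound, but -0.093 over the ligands with at least 10 counts in every library and 0.056 and 0.050 in limma at pseudocounts of 0.1 and 1, in a list of mostly scarce transcripts that together came to 19.4 to 20.8 CPM. Fgf5, a marker of primed pluripotent cells, had 2 and 1 counts in WT, at or under the floor, and 9 and 10 counts in Haspin-KO (edgeR adjusted p = 0.0535). Fgf10 measured 2.26 and 2.70 FPKM in WT and 1.68 and 1.60 FPKM in Haspin-KO (log2 fold change -0.60, SE 0.17, edgeR adjusted p = 0.0949). Of 6 tested receptors and co-receptors 0 passed, with a median of -0.067, 2 higher and 1 lower at an unadjusted p of 0.05. Klb, the co-receptor for endocrine FGFs, had 96 and 66 counts in WT and 32 and 31 in Haspin-KO (log2 fold change -0.90, SE 0.26, edgeR adjusted p = 0.0952), and Fgfr4 had 40 and 29 counts in WT and 55 and 40 in Haspin-KO (log2 fold change 0.91, SE 0.29, edgeR adjusted p = 0.125). The Haspin-KO libraries held fewer counts in total, which the fold changes take into account and the counts do not.

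The Ras-ERK cascade, with 18 genes from Frs2 to Nf1 all tested, had 0 genes past an edgeR adjusted p of 0.05, 4 higher and 2 lower at an unadjusted p of 0.05, and a median log2 fold change of 0.041. Mapk3, which encodes ERK1, measured 37.95 and 34.12 FPKM in WT and 28.7 and 28.9 FPKM in Haspin-KO (log2 fold change -0.33, SE 0.087, edgeR adjusted p = 0.0803). Rasa1, a GTPase-activating protein that turns Ras off, measured 9.19 and 10.2 FPKM in WT and 12.4 and 11.7 FPKM in Haspin-KO (log2 fold change 0.31, SE 0.088, edgeR adjusted p = 0.0923). Of 11 tested other ERK feedback inhibitors, 0 passed, 2 were higher at an unadjusted p of 0.05, and the median was 0.16. The 2 named from them were Dusp5, a nuclear ERK phosphatase, at 0.65 (SE 0.25, edgeR adjusted p = 0.185) and Dusp9 at 0.35 (SE 0.15, edgeR adjusted p = 0.223).

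Etv5 was the 1 gene with an edgeR adjusted p under 0.05 among 81 tested in the 8 pathway lists, or 1.24%, beside 0.988% of all genes higher and 1.51% lower, so that the count for the lists was not above the background. This PEA3-type ETS factor measured 82.3 and 88.4 FPKM in WT and 122.4 and 128.0 FPKM in Haspin-KO, so that both Haspin-KO libraries lay above both WT libraries. It rose by a log2 fold change of 0.55 (SE 0.074, 95% interval 0.38 to 0.71, edgeR adjusted p = 0.00767), under the 2-fold required for a call. Its relative Etv4 did not pass, as given above, and the difference between the 2 genes was not tested. The rise of Etv5 fell short of the threshold in limma, with adjusted p of 0.217 and 0.163 at pseudocounts of 0.1 and 1, and in edgeR without WT replicate 1 or without WT replicate 2, with adjusted p of 0.127 and 0.0612, while the log2 fold change stayed between 0.49 and 0.64 in every setting. Etv1, the third PEA3-type gene, measured 1.14 and 1.5 FPKM in WT and 1.72 and 2.02 FPKM in Haspin-KO (log2 fold change 0.51, SE 0.16, edgeR adjusted p = 0.123). In the list of 8 tested other ERK-responsive transcripts that holds both, 2 were higher and 0 lower at an unadjusted p of 0.05, and the median was -0.092, but 0.41 without WT replicate 2.

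**Figure D5:**
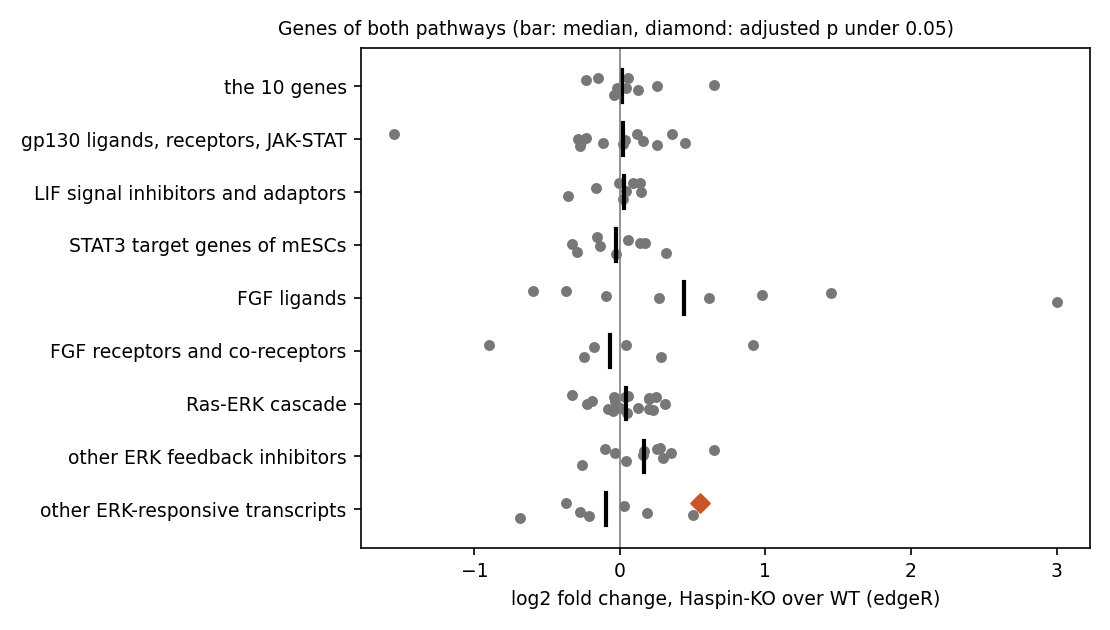
Log2 fold change in Haspin-KO over WT (edgeR) of each tested gene of the 10 and of 8 further pathway lists, with a bar at the median of each list. Etv5, the orange diamond, is the one gene with an adjusted p under 0.05, and the medians lie between -0.092 and 0.44.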

How the data were processed

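The authors deposited raw counts per gene and library, and FPKM values that equal these counts divided by exonic length and library total in 100% of values. The submitters' processing notes list cutadapt (1.9.1), HISAT2 (2.0.1), HTSeq (0.6.1), DESeq2 and mm10. The strand setting, handling of reads mapping to several places and annotation release are not given in the sources used here. Columns of the authors' annotation gave positions and pathways.

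Counts were compared with edgeR (4.0.16) in R (4.3.3), with its low-count filter, TMM scaling and the two-sided quasi-likelihood test (2 residual degrees of freedom), Benjamini-Hochberg adjusted over 15580 genes. SE is the log2 fold change over the square root of F. FPKM served to compare genes. Of 55401 genes, 26731 had no count. Alternatives were DESeq2 (1.42.0), limma (3.58.1) on log2(FPKM + 0.1 or 1), other scaling, filters, thresholds and thinning, loess offsets for GC content and length, a replicate block and leaving out each library. On simulated counts for 15580 genes, edgeR recovered 100% of 200 changed genes with 1 false call. It recovered 97.5% with 0 false calls when same-numbered libraries shared an effect. With a GC bias added and left uncorrected, it recovered 86% with 1701 false calls. The sizes of the simulated shared effect and GC bias were fixed beforehand and not matched to the data. These results therefore do not give the number of false calls in the data, or the recovery for genes such as Spry4 and Dusp6. Recovery was counted over all changed genes and not by size of change or by spread between libraries. It therefore cannot tell whether changes as small as those fitted for the members would be detected. The log2 fold changes of the data correlated with GC content across genes (r = -0.216). The members and lists were chosen with earlier results of these data known. Named besides the members were, per list, genes with adjusted p under 0.05 and otherwise up to 2 of smallest p, and the highest, lowest and undetected markers.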

Additional observations from a re-analysis of the deposited data

How the results depend on the processing

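Of the 10 genes 0 were called, and 0 had an adjusted p under 0.05, in every setting except those named here. Leaving out each library in turn gave 0 to 1 of the 10 called and 0 to 1 with an adjusted p under 0.05, the 1 being Dusp6, 5 to 121 genes called higher and 25 to 115 called lower among all genes (51 and 78 with all libraries), and a median of the 10 from -0.15 to 0.10. Calls totalled 30 without WT replicate 1, 35 without WT replicate 2 and 215 without Haspin-KO replicate 2, against 129 with all libraries. Over those fits the log2 fold change ran from -0.12 to 0.26 for Il6st, -0.15 to 0.13 for Stat3, -0.047 to 0.28 for Fgf4, -0.054 to 0.022 for Fgfr1, -1.68 to 1.55 for Spry4, -0.55 to 1.68 for Dusp6 and -0.30 to 0.18 for Etv4, each of which changed sign, and from 0.059 to 0.48 for Lifr, -0.40 to -0.046 for Spry2 and -0.19 to -0.11 for Socs3, which did not. The median kept its sign in every setting for 2 of the 8 pathway lists, the Ras-ERK cascade and the other ERK feedback inhibitors. Genes called higher and lower numbered 125 and 140 without a filter, 97 and 127 at a fold over 1.5, 266 and 185 at unadjusted p, 21 and 21 in limma with a pseudocount of 0.1, and 0 and 0 with a pseudocount of 1 (2531 at unadjusted p under 0.05). Called lower were 46 in DESeq2 and 36 with at least 10 counts in every library.

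The replicate numbers are shared by the groups, and deviations of same-numbered libraries correlated across genes (r = 0.289, genes not being independent), but no source says what a number marks. With the replicate number as a block, which leaves 1 residual degree of freedom, 240 genes were called higher and 167 lower, and 3 of the 10 had an adjusted p under 0.05 (Lifr 0.26, Spry2 -0.23, Dusp6 0.60), with Spry4 at -0.015. The share of all genes at that adjusted p was not counted, here or in the blocked fit below. Neither count of 3 of the 10 can therefore be set against a background. Without the block 3242 of 15580 genes had an unadjusted p under 0.05 in edgeR, and with it 5268 had one. With GC content and gene length corrected too, 4220 genes had an unadjusted p under 0.05, 201 and 137 were called and 3 of the 10 passed (Fgf4 0.20, Spry2 -0.28, Dusp6 0.63). There Il6st was -0.013, Stat3 0.038, Socs3 0.0072, Fgfr1 0.073 and Etv4 0.11. With that correction alone Il6st was -0.017, Stat3 0.036, Socs3 0.0083, Fgfr1 0.073 and Etv4 0.12. Spry4 was -0.048 and -0.037 in limma at pseudocounts of 0.1 and 1. The causes were not tested.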

Other observations

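Beside Spry4, Dusp6 and Myc, the genes above 2-fold in replicate 2 over replicate 1 in both groups were Slc16a3, Bmp4, Tor3a, Slc39a14, Soga3, Aire and Id3, listed after the values were seen. Bmp4, a ligand that supports self-renewal of mESCs together with LIF, had log2 ratios of 1.23 in WT and 1.31 in Haspin-KO, and Id3, a target of BMP signalling, 1.11 and 1.04. Between Haspin-KO and WT their log2 fold changes were -0.096 (edgeR adjusted p = 0.926) for Bmp4 and -0.12 (edgeR adjusted p = 0.884) for Id3. In the opposite direction past 2-fold in both groups were 5 genes, H19, Elf3, Gata2, Krt18 and Vegfa. H19, an imprinted non-coding RNA, had log2 ratios of -1.54 and -1.65, and Krt18, a keratin of simple epithelia, -1.27 and -1.21. All 5 tested primitive endoderm markers had ratios below 1 in both groups, lowest in WT for Gata6, at 0.351 in WT and 0.503 in Haspin-KO. The intervals of Gata6 and Gata4 lay below 1 in both groups. Those of Sox17 included 1 in both, at ratios of 0.756 and 0.851. Those of Pdgfra and Cubn included 1 in WT, at 0.969 and 0.840, and not in Haspin-KO. Of the untested markers, Sox7 had 9 and 19 counts in WT and 8 and 8 in Haspin-KO. Foxa2 had 5 and 2 counts in WT and 4 and 3 in Haspin-KO, and Amn 19 and 5 in WT and 7 and 5 in Haspin-KO. Counts this low do not give a direction between replicates. The share of all genes lower in both was not counted.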
